A study of Homo sapiens with 17 samples.

Results

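HNRNPU gene-end sites with POLIIS2P are positions where HNRNPU and POLIIS2P were both called beside an end of a protein-coding gene. A position counted when it was a summit of the first HNRNPU repeat on chromosomes 1 to 22 with a summit of the second repeat within 250 bp, lay within 1000 bp of either end of a RefSeq protein-coding gene, and had a summit within 500 bp in both POLIIS2P lists of shLUC cells. A summit is the base of highest signal in a called peak. Of 16737 HNRNPU sites found in both repeats, 7026 lay at a gene end, and 5892 of these also had POLIIS2P. The 5892 sites are called members here. They were 83.9% of the HNRNPU sites at gene ends and 35.2% of all HNRNPU sites. A further 702 gene-end sites had POLIIS2P in 1 shLUC list only and 432 had it in neither. The members were thus selected on the presence of HNRNPU and POLIIS2P summits, and neither presence is a finding. The label fits the rule, except that almost all members whose gene has a known strand lay where transcription begins rather than where it ends, as described below.

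The study profiled chromatin by CUT&Tag in the established human line H1, whose cells are pluripotent, with an antibody that guides a transposase to cut DNA close to its target. All transfected cells carried an shRNA and had been selected with puromycin. The shRNA targeted HNRNPU (shHNRNPU#1 or shHNRNPU#2) or luciferase as the control (shLUC). H3K4me1 and H3K27ac were each profiled in 4 shHNRNPU libraries, 2 for each shRNA, and in 2 shLUC libraries. The POLIIS2P libraries were 1 of shHNRNPU#1 and 2 of shLUC cells. HNRNPU was profiled in 2 libraries of untransfected cells, so HNRNPU binding after knockdown was not measured. The labels give repeats but not whether they came from separate cultures, so each p-value measures only the spread between these libraries.

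HNRNPU is an abundant nuclear protein that binds RNA and DNA, and it is also known as scaffold attachment factor A. It is known for roles in chromosome organisation and in pre-mRNA splicing. POLIIS2P is the name in the sample titles and is commonly used for RNA polymerase II phosphorylated on serine 2 of its tail, a form associated with elongating polymerase and with the downstream parts of genes. H3K27ac is a mark of active promoters and enhancers, whereas H3K4me1 is strongest at enhancers and at the edges of active promoters.

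The lists differed in length. Those titled H3K4me1 of shHNRNPU cells held 147145 to 214333 summits and those titled H3K27ac held 40487 to 85142. In the 4 shLUC histone libraries the titles and the names inside the peak files give opposite antibodies. Those titled H3K4me1 held 62449 and 90914 summits, and those titled H3K27ac held 179137 and 181357. Comparisons of shHNRNPU with shLUC are given as labelled and with names exchanged, and other results by antibody mostly after exchange, as stated beside each. Read depth was unknown, and libraries made without a specific antibody were not analysed here. Of 8 genes that mark pluripotent cells, 5 (LIN28A, DNMT3B, SALL4, L1TD1 and PODXL) had one of the 20000 strongest POLIIS2P summits in or beside the gene in all 3 libraries, and POU5F1 and SOX2 had none. Such a summit in all 3 libraries was found at 0 of 3 liver genes.

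The promoters of some members named by rank are shown first, because their letters can be set beside the values that follow. RPS19, ING4, HNRNPC and SF3B6 were among the members with the highest HNRNPU scores overall or in their gene list. PSMG1 and SF3B6 were among the highest for POLIIS2P, JUN is an immediate early gene, and TPRKB and EGLN2 are members without any histone summit. They were picked from the named members after their values were seen. Each run is the 250 bases before the gene start on the gene's strand, 5′ to 3′, from RefSeq on GRCh38.p14. The windows are chr19:41860005-41860254 on the plus strand (RPS19), chr12:6663120-6663369 on the minus strand (ING4), chr14:21269443-21269692 on the minus strand (HNRNPC), chr2:24076327-24076576 on the minus strand (SF3B6), chr21:39183452-39183701 on the minus strand (PSMG1), chr1:58784048-58784297 on the minus strand (JUN), chr2:73737346-73737595 on the minus strand (TPRKB) and chr19:40798941-40799190 on the plus strand (EGLN2). Capitals mark letters searched for on both strands. These were GGGCGG, bound by SP and KLF factors, CCAAT, bound by NFY, CCGGAAG, bound by ETS factors, GCATGCGC of NRF1, AAGATGGCG of YY1, TCTCGCGAG of ZBTB33, the E box CACGTG, the CRE TGACGTCA and the TATA box TATAAA. Where matches overlap or touch, their capitals run together.
RPS19: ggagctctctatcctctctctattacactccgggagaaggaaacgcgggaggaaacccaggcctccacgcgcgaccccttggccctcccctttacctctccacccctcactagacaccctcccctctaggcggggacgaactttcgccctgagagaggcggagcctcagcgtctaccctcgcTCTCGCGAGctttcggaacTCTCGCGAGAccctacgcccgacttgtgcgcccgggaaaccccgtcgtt
ING4: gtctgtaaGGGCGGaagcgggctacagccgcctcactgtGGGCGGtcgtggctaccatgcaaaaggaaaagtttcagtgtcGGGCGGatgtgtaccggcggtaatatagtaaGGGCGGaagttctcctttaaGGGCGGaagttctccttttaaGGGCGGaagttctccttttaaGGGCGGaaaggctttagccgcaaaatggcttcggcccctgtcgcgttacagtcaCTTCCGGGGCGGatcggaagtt
HNRNPC: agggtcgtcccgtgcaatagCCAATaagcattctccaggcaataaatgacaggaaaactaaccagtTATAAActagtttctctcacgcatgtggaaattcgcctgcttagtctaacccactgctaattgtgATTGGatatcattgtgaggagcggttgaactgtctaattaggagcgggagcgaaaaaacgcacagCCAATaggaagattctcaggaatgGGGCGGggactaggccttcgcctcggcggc
SF3B6: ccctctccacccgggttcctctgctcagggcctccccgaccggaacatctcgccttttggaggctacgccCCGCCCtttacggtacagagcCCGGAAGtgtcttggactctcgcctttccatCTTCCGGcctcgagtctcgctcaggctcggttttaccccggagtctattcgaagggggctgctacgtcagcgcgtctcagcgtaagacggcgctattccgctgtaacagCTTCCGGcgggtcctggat
PSMG1: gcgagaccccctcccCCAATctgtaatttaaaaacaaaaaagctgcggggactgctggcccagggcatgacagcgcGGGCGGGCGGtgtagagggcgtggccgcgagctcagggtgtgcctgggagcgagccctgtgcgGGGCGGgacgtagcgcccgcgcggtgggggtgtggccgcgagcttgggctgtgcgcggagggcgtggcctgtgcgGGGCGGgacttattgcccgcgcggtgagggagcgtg
JUN: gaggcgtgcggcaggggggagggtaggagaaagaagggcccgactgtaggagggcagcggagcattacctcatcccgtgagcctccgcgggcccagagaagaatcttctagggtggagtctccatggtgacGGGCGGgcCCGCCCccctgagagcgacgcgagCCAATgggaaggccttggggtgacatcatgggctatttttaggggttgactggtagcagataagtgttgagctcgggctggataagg
TPRKB: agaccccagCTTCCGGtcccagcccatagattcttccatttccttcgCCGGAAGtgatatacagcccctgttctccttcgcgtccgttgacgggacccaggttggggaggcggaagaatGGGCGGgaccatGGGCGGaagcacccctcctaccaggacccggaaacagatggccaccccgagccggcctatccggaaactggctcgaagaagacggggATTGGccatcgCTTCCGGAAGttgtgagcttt
EGLN2: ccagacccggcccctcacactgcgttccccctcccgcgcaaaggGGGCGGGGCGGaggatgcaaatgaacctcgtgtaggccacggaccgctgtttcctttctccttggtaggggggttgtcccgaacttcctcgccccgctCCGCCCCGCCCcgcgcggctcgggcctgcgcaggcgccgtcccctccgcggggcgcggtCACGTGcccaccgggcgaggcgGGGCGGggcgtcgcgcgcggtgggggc

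Counting from the first base of each run, the HNRNPU summit of the first repeat lay at base 23 in RPS19, base 90 in ING4, base 111 in HNRNPC, base 29 in SF3B6, base 185 in PSMG1, base 182 in JUN, base 103 in TPRKB and base 81 in EGLN2. The RPS19 run held the ZBTB33 letters at 3 positions, bases 183, 202 and 203, of which the last 2 are the same stretch read on both strands. ING4 held 8 GC boxes, and 3 of the gaps between the starts of neighbouring boxes were 20, 21 and 21 bases. SF3B6 held 3 ETS matches and TPRKB 4, of which 2 overlap near the gene start. HNRNPC held 3 CCAAT boxes and, at 48.4% GC, was the poorest of the 8 in G and C. EGLN2, at 76.0% GC, was the richest and held 5 GC boxes.

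To describe where the members lay, the nearest gene end was assigned as a start or an end of transcription for the 4948 members whose nearest gene had a strand in the RefSeq promoter table. In 4715 of them (95.3%) it was a gene start, and in 233 (4.71%) a transcription end. HNRNPU sites at gene ends without POLIIS2P had nearly the same split, with 94.9% of 356 at starts. POLIIS2P sites at gene ends without HNRNPU had the opposite one, with 73.7% of 2995 at transcription ends and 26.3% at starts. The rule treats both gene limits alike, so it did not set the split of the members. The POLIIS2P sites without HNRNPU are those left after removal of sites near HNRNPU summits, which at gene ends lay mostly at starts. Their split therefore follows in part from that choice, and the split of all POLIIS2P gene-end sites was not counted. Of all 11416 POLIIS2P gene-end sites shared by both shLUC lists, 3735 (32.7%) had no HNRNPU summit within 500 bp in either repeat.

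**Figure D1:**
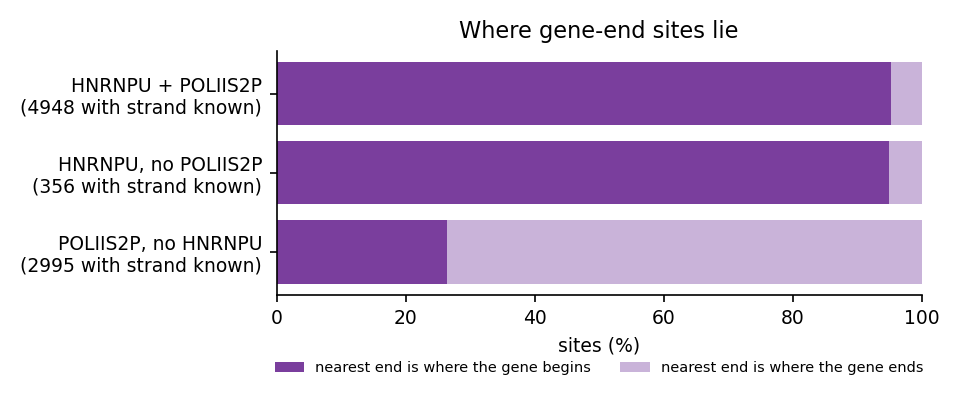
Bars show the share of gene-end sites (%) whose nearest gene limit is where the gene begins or where it ends, for members (HNRNPU + POLIIS2P), HNRNPU sites without POLIIS2P and POLIIS2P sites without HNRNPU. The first 2 bars are 95.3% and 94.9% gene start, and the third is 73.7% transcription end.

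At gene starts the member summits lay close to the start itself. Their median position was 47 bp upstream, with quartiles at -158 and 73 bp, and 76.0% lay within 250 bp. HNRNPU sites without POLIIS2P at gene starts were spread more widely, with 56.8% within 250 bp. The nearest POLIIS2P summit was a median of 64 bp from the member summit in each shLUC library and 67 bp in the shHNRNPU#1 library, and the nearest HNRNPU summit of the second repeat was 54 bp away. Median positions at starts were -47 and -50 bp for the HNRNPU repeats and -47 and -48 bp for POLIIS2P of shLUC cells. The POLIIS2P summits used are those nearest to the member summit, and the rule required one within 500 bp in both shLUC lists. The closeness of these medians is therefore partly set by the choice of sites and is not a finding. In the single shHNRNPU#1 library the POLIIS2P median was -60 bp, and 66.1% of its summits lay upstream of the start against 60.4% and 61.8% in the shLUC libraries. Its quartiles were -145 and 44 bp, against -154 and 83 bp and -151 and 80 bp in shLUC. The rule did not use the shHNRNPU#1 list, and with 1 library this difference could not be tested.

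The histone marks were placed differently around the same starts. For each library the deposited summit nearest to the member summit was taken, of any score, where one lay within 500 bp. In the 4 libraries titled H3K4me1 of shHNRNPU cells its median position was -84.0 to -88.5 bp. Of these summits 72.5% to 75.2% were upstream. In the 4 libraries titled H3K27ac of shHNRNPU cells the median was -3 to 8 bp, and 48.1% to 50.7% were upstream. The libraries titled H3K27ac shLUC had medians of -84 and -90 bp and those titled H3K4me1 shLUC 17 and 14 bp, so on this measure each fell beside the shHNRNPU libraries of the other title. After exchange of names, H3K27ac medians were 14 and 17 bp in shLUC and 8 bp or less in all 4 shHNRNPU libraries, a gap that was not tested.

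**Figure D2:**
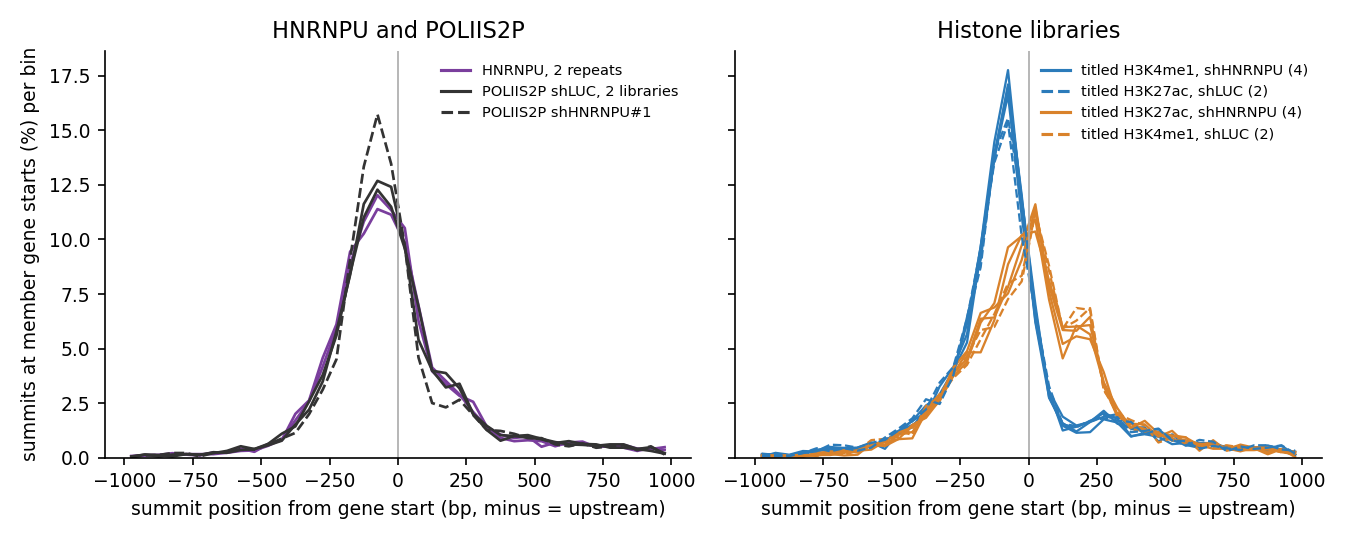
Lines show the percentage of summits per bin of 50 bp by distance from the gene start (bp) at members assigned to starts, for HNRNPU and POLIIS2P (left) and for the 12 histone libraries (right). Lines titled H3K27ac shLUC follow those titled H3K4me1 shHNRNPU, with medians near -84 to -90 bp. The POLIIS2P shHNRNPU#1 line is narrower than the shLUC lines, with its median at -60 bp against -47 and -48 bp.

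Of the members, 1164 (19.8%) lay within 1000 bp of the limits of 2 or more genes, against 9.49% of HNRNPU sites without POLIIS2P and 13.8% of POLIIS2P sites without HNRNPU. In 894 of these members the strands were known. There, 664 joined gene starts on opposite strands, as in a promoter shared by divergent genes, 170 joined a start and an end, 48 joined starts on the same strand and 12 only ends. A member near 2 genes lies within 1000 bp of limits of both PSMG1 and BRWD1, with the PSMG1 start the nearest. PSMG1 is an assembly factor of the proteasome and BRWD1 a bromodomain protein. Its HNRNPU score percentiles were 99.49 and 99.60 and its POLIIS2P percentiles 99.997 and 99.99 in shLUC and 99.98 in shHNRNPU#1 cells. A score percentile is the rank of a summit among all summits of its own list, with 100 the strongest. This site had one of the 20000 strongest summits in 12 of 12 histone libraries.

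The members touched 6843 of 19122 protein-coding genes of chromosomes 1 to 22 (35.8%). Of these genes 6586 had 1 member and 257 had 2 or 3, and 222 had members at both limits. By chromosome the share of genes with a member ran from 29.1% on chromosome 4 to 42.3% on chromosome 14. Genes with a member spanned a median of 29636 bp in the genome and other genes 21590 bp.

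Among RefSeq promoter windows of 300 bases (250 before and 50 after a start), 3760 of 21155 windows of coding genes held a member summit. Their median GC content was 66.0% against 62.7% over all windows, and they held a median of 27 CpG dinucleotides against 21. The 814 windows with a summit in both POLIIS2P shLUC lists and in no HNRNPU list had 67.7% GC and also 27 CpG. The ETS letters CCGGAAG stood in 27.05% of windows with a member, in 12.9% of all windows and in 15.8% of the windows with POLIIS2P alone. The GC box GGGCGG stood in 77.9%, 56.6% and 75.4%, and the CCAAT letters in 43.6%, 34.4% and 35.9%. The NRF1 letters stood in 8.14%, 3.66% and 5.53%, the YY1 letters in 5.48%, 2.42% and 3.56%, and the ZBTB33 letters in 2.29%, 0.926% and 0.983%. The TATA letters were less common in windows with a member, at 3.09% against 9.51% of all windows and 4.18% with POLIIS2P alone. The E box stood in 10.9%, 8.25% and 11.2%, and the CRE letters in 4.55%, 2.31% and 2.09%. These are counts of letters, not of bound factors, and were not tested.

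The scores of HNRNPU at members were higher than at other HNRNPU sites. Their median percentile was 84.1 in the first repeat and 84.0 in the second. It was 53.3 and 55.4 at gene-end sites without POLIIS2P, 62.2 and 60.1 at those with POLIIS2P in 1 shLUC list only, and 64.6 and 64.1 at HNRNPU sites away from gene ends. POLIIS2P was ranked in the same direction, with medians of 88.2 and 87.1 in shLUC and 88.5 in shHNRNPU#1 cells at members, and 68.4, 67.8 and 68.8 at gene-end POLIIS2P sites without HNRNPU. The 233 members at transcription ends had higher POLIIS2P ranks than those at starts, with medians of 95.8 and 94.5 against 88.0 and 87.0. Because the members were chosen by summits in these same lists, the ranks are a description and were not tested.

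The highest HNRNPU scores belonged to members at FAM86B2, EEF2KMT, ZBTB37, RPS19, TRIM41, ING4, FAM86B1 and HNRNPD. FAM86B1, FAM86B2 and EEF2KMT are related gene copies, so the placing of reads at these 3 is uncertain. ZBTB37, a zinc finger gene, had HNRNPU percentiles of 99.98 and 99.99 at a site 217 bp inside the gene, and POLIIS2P percentiles of 99.56, 99.32 and 99.77 (shLUC, shLUC and shHNRNPU#1). RPS19, a protein of the small ribosomal subunit, had 99.99 and 99.96 for HNRNPU 228 bp upstream of the start, where the printed run begins. Its POLIIS2P percentiles were lower, at 91.2, 91.1 and 90.3. HNRNPD, an RNA-binding protein that regulates mRNA decay, had 99.94 and 99.94 for HNRNPU and 99.61, 99.53 and 99.74 for POLIIS2P. These 3 members had a summit in 12 of 12 histone libraries. ING4, a reader of trimethylated H3K4, had 99.96 and 99.96 for HNRNPU and 88.0, 94.6 and 94.998 for POLIIS2P. In contrast to the others it had a histone summit in only 2 of 12 libraries, and none of these was among the 20000 strongest.

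Among the highest POLIIS2P scores were those at MIEN1, RPL27A, PSMG1, DMPK, PTMA, SF3B6 and SLC2A1. In RPL27A, DMPK, PTMA and SLC2A1 the nearest limit was the transcription end, so 4 of these 7 lay at an end, against 4.71% of the members with a known strand. RPL27A, a protein of the large ribosomal subunit, had POLIIS2P percentiles of 99.99, 99.995 and 99.99 and HNRNPU percentiles of 99.65 and 99.80, 784 bp before its end. PTMA, which encodes the small acidic protein prothymosin alpha, had 99.98 for POLIIS2P in each of the 3 libraries and 87.7 and 92.8 for HNRNPU, 284 bp beyond its end. SLC2A1, the glucose transporter GLUT1, had 99.98, 99.97 and 99.98 for POLIIS2P and 97.0 and 93.0 for HNRNPU. After exchange of names, H3K27ac was called in 6 of 6 libraries at RPL27A and at DMPK and in 3 of 6 at PTMA and at SLC2A1. H3K4me1 was called in 6 of 6 at RPL27A, PTMA and SLC2A1 and in 4 of 6 at DMPK. MIEN1 had the highest POLIIS2P score of all members, with 99.998, 99.999 and 99.999, and HNRNPU percentiles of 93.6 and 94.7.

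HNRNPU score and the other signals rose together within the members. When members were divided into quartiles of 1473 by mean HNRNPU percentile, one of the 20000 strongest POLIIS2P summits lay within 500 bp of 46.2% to 51.0% of the lowest quartile in the 3 libraries and 94.0% to 95.3% of the highest. For the libraries of the H3K27ac antibody after exchange of names the share was 23.9% to 33.5% in the lowest quartile and 64.2% to 78.0% in the highest. For those of the H3K4me1 antibody it was 6.92% to 8.08% and 13.1% to 20.4%. The lowest value of the top quartile exceeded the highest of the bottom quartile for each antibody. The quartiles are of the same sites in all libraries, and this trend is given as a description.

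**Figure D3:**
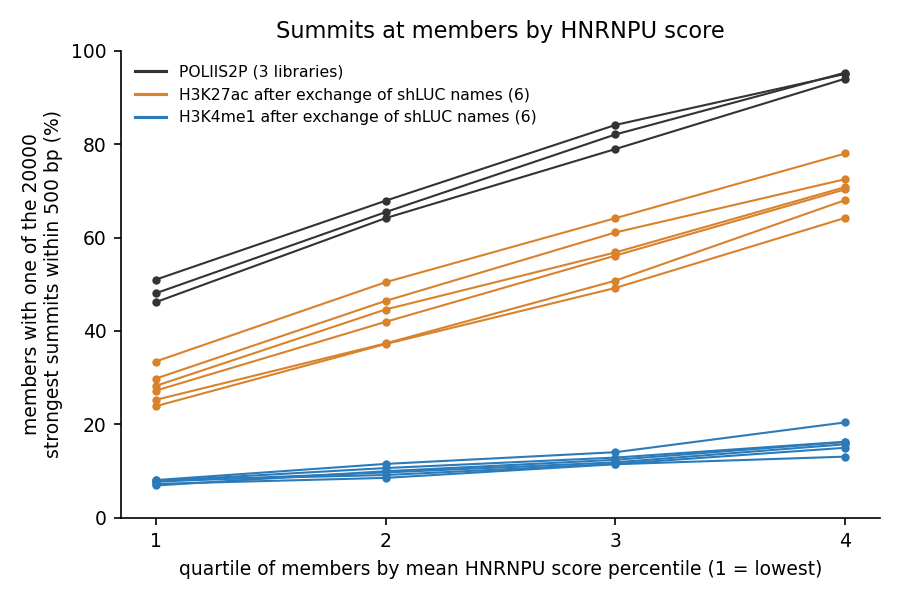
Each line is 1 library and gives the share of members (%) with one of its 20000 strongest summits within 500 bp, for quartiles of members from the lowest (1) to the highest (4) mean HNRNPU score percentile. POLIIS2P lines end at 94.0% to 95.3%, H3K27ac lines at 64.2% to 78.0% and H3K4me1 lines at 13.1% to 20.4%.

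To ask whether the members differed from comparable sites in marks that the rule did not use, the share of sites with one of the 20000 strongest histone summits within 500 bp was compared in each of the 12 histone libraries. Members had the higher share in 12 of 12 libraries, both against HNRNPU gene-end sites without POLIIS2P and against POLIIS2P gene-end sites without HNRNPU. The mean difference was 19.8 ± 18.5 percentage points (SD, n = 12) against the former and 25.8 ± 19.0 against the latter, each with a two-sided exact permutation p of 0.000488, the smallest that sign changes over 12 libraries can give. The libraries look at the same sites, so this p speaks of the libraries and not of the sites. By title, the differences were 15.3 and 21.5 points in the 6 libraries titled H3K4me1 and 24.2 and 30.1 in the 6 titled H3K27ac (two-sided exact permutation p = 0.0312 each). With this cut the libraries fell into 2 kinds. After exchange of names, the 6 H3K27ac libraries had summits at 49.5% ± 4.70 of members (SD, n = 6), at 12.2% ± 2.51 of HNRNPU sites without POLIIS2P and at 5.78% ± 0.599 of POLIIS2P sites without HNRNPU. The 6 H3K4me1 libraries had 11.5% ± 1.15, 9.34% ± 1.02 and 3.63% ± 0.135.

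Among the strongest summits, the difference from HNRNPU sites without POLIIS2P was 37.4 ± 2.91 percentage points for H3K27ac and 2.19 ± 0.945 for H3K4me1. Members were higher in 6 of 6 libraries for each antibody (two-sided exact permutation p = 0.0312, the smallest possible). The size of the H3K4me1 difference depends on this cut, as the shares with all deposited summits show below. Members also had the higher HNRNPU scores, with medians of 84.1 against 53.3, and the part of the score in the difference was not tested. The comparison with POLIIS2P sites without HNRNPU sets mostly starts beside mostly transcription ends. When it was limited to gene starts, 4715 members had an H3K27ac share of 51.0% ± 4.49 (SD, n = 6) against 10.3% ± 1.63 at 789 POLIIS2P sites, a difference of 40.7 ± 3.74 percentage points (two-sided exact permutation p = 0.0312). For H3K4me1 the shares at starts were 10.1% ± 1.16 and 4.14% ± 0.571. These 789 sites also had lower POLIIS2P ranks, with shLUC medians of 61.5 and 61.2 against 88.0 and 87.0 at members at starts. The part of POLIIS2P rank in the differences was not tested. Against HNRNPU sites without POLIIS2P at starts the H3K27ac difference was 39.1 ± 2.24 percentage points, whereas that of H3K4me1 was 1.94 ± 1.16 with a two-sided exact permutation p of 0.0625, which does not pass 0.05. Splitting by antibody and limiting to starts were chosen after seeing the data.

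**Figure D4:**
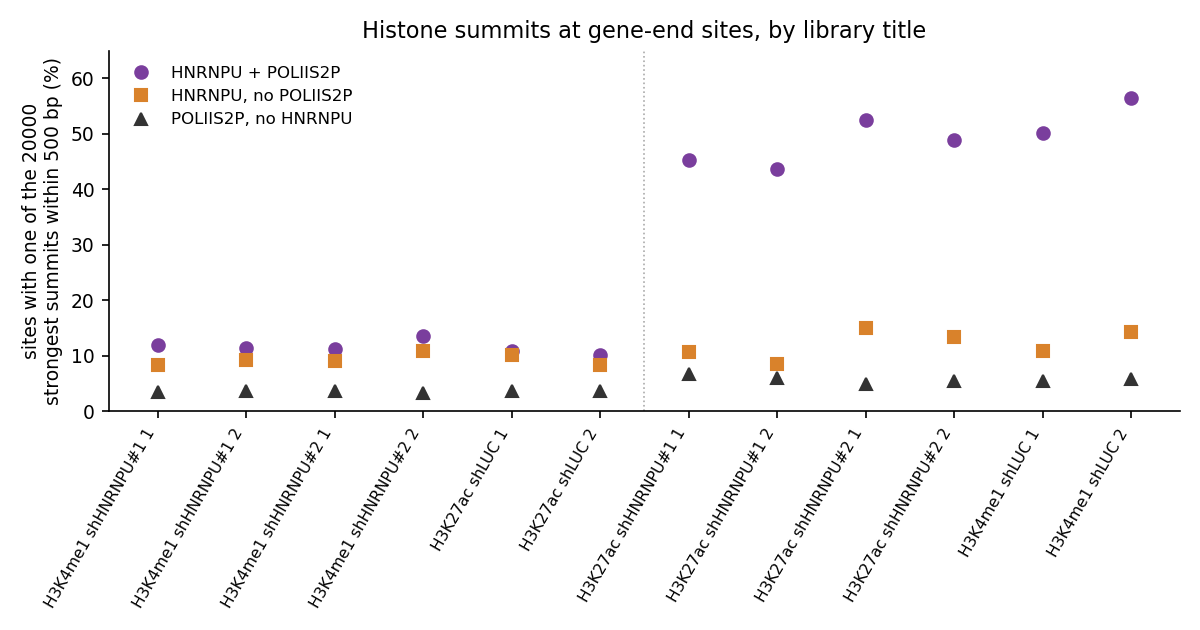
Points give the share of sites (%) with one of the 20000 strongest summits of a histone library within 500 bp, for members, HNRNPU sites without POLIIS2P and POLIIS2P sites without HNRNPU, with libraries named by their titles. Members lie between 43.6% and 56.5% in the 6 libraries on the right and between 10.1% and 13.5% in the 6 on the left, above the other sets in each library.

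When all deposited summits were counted, H3K4me1 was as common at members as H3K27ac, at 78.6% ± 5.23 and 72.0% ± 9.62 (SD, n = 6 each). The H3K4me1 lists are longer, and H3K4me1 summits at members were of middling rank, with medians of 59.6 to 68.7 in their lists against 78.8 to 88.7 for H3K27ac after exchange of names. A histone summit was found within 500 bp in all 12 libraries at 1651 members (28.0%) and in none at 48 (0.815%). Of HNRNPU sites without POLIIS2P, 3.24% had a summit in all 12 and 5.56% in none. Of POLIIS2P sites without HNRNPU, 1.58% had one in all 12 and 35.7% in none.

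Among the 48 members without a histone summit, the highest HNRNPU scores were at TPRKB, ZBTB7A, EGLN2 and MAZ. TPRKB, a component of the complex that makes a tRNA modification, had HNRNPU percentiles of 97.0 and 97.7 and POLIIS2P percentiles of 80.6, 52.8 and 78.4. EGLN2, an oxygen-sensing prolyl hydroxylase, had 92.9 and 96.8 for HNRNPU and 97.6, 97.0 and 97.1 for POLIIS2P. MAZ is a zinc finger factor that binds GC-rich DNA and lies beside KIF22. Its site had 95.2 and 90.7 for HNRNPU and 99.78, 99.70 and 99.84 for POLIIS2P. These 4 sites thus ranked high for HNRNPU and, at EGLN2 and MAZ, for POLIIS2P, without a called histone peak within 500 bp. Of the runs printed above, that of EGLN2 had 76.0% GC and 5 GC boxes, and that of TPRKB 60.8% GC and 2 GC boxes.

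The effect of HNRNPU knockdown on histone marks at members was examined next. As labelled, the H3K4me1 share of members was 12.0% ± 1.04 (SD, n = 4) in shHNRNPU and 50.1% and 56.5% in the 2 shLUC libraries, and the H3K27ac share 47.6% ± 3.92 against 10.9% and 10.1%. The differences of -41.3 and 37.1 percentage points had a two-sided exact permutation p of 0.0667 each, the smallest that 4 against 2 libraries can give, and 0.05 is out of reach with these numbers. With names exchanged, the same shHNRNPU values stood beside 10.9% and 10.1% for H3K4me1 and 50.1% and 56.5% for H3K27ac. The H3K4me1 difference became 1.52 percentage points (exact permutation p = 0.133) and that of H3K27ac -5.73 (exact permutation p = 0.200). The 4 H3K27ac shHNRNPU libraries lay at 45.3%, 43.6%, 52.5% and 48.9%, of which the shHNRNPU#2 value of 52.5% overlaps the shLUC values. With both histone antibodies joined, which does not depend on the names, the share was 52.1% ± 3.21 in 4 shHNRNPU pairs of libraries and 54.2% and 59.6% in shLUC, a difference of -4.78 points (exact permutation p = 0.200). The 4 H3K4me1 shHNRNPU values, 11.3% to 13.5%, lay above both shLUC values after exchange, although the difference was near the SD of 1.04 points.

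Single sites were counted in the same way. As labelled, 32.4% of members had one of the 20000 strongest H3K4me1 summits in both shLUC and no shHNRNPU library, where 18.5% of all HNRNPU sites did. In all 4 shHNRNPU and no shLUC library it was 1.46% of members beside 6.15% of HNRNPU sites. The second pattern requires a summit in more libraries than the first, so the shares of the patterns are not comparable with each other. For H3K27ac, 1.56% of members were in both shLUC and no shHNRNPU library beside 6.03% of HNRNPU sites, and 23.4% in all 4 shHNRNPU and no shLUC library beside 12.9%. With names exchanged each pattern was rarer at the members than as labelled. H3K4me1 was found in both shLUC and no shHNRNPU library at 0.153% of members beside 0.353% of HNRNPU sites. It was found in all 4 shHNRNPU and no shLUC library at 0.339% beside 0.317%. For H3K27ac the values were 1.26% beside 1.14%, and 0.272% beside 0.293%. After exchange no pattern held for more than 1.26% of members.

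POLIIS2P was also called at most members in the single shHNRNPU#1 library. A summit lay within 500 bp of 96.3% of members there (95% Wilson interval 95.8% to 96.7%, counting error only). Since members were selected on both shLUC lists, this share cannot be set beside 100% in shLUC. Sites were therefore chosen with 1 shLUC list and looked for in the other. Of 6305 HNRNPU gene-end sites with POLIIS2P in the first shLUC library, 66.2% had one of the 20000 strongest summits of the second and 70.8% one of the 20000 strongest of shHNRNPU#1. Of 6181 sites chosen on the second, 69.3% were found in the first and 72.1% in shHNRNPU#1. The share in shHNRNPU#1 was thus higher by 4.65 and 2.82 percentage points. With all deposited summits the shares were 93.4% and 94.0% in the first choice and 95.3% and 94.9% in the second, differences of 0.571 and -0.453 points. With 1 knockdown library there is no test.

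The 219 members without a POLIIS2P summit in shHNRNPU#1 cells ranked low in shLUC cells, with a median shLUC percentile of 49.5 against 87.0 over all members. The highest of them in shLUC were at TMEM120A, CCN2, NHEJ1 and RFX1. At CCN2, a secreted matrix-associated protein, POLIIS2P percentiles were 97.0 and 98.1 in shLUC, and HNRNPU was at 89.6 and 86.6. At NHEJ1, a factor of DNA end joining, they were 95.8 and 96.9, with HNRNPU at 96.6 and 97.0. At RFX1, a winged-helix transcription factor, they were 94.7 and 94.96, with HNRNPU at 98.5 and 98.2. NHEJ1 kept a histone summit in 12 of 12 libraries. These sites were chosen for the missing summit, which is a description of 1 library. Among POLIIS2P gene-end sites without HNRNPU, 77.9% had a summit in shHNRNPU#1, and their shLUC scores were lower too (median percentiles of 68.4 and 67.8).

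The targeted gene was not a member gene. At its start on chromosome 1 (position 244864543, minus strand) the nearest HNRNPU summits lay 80 bp inside the gene in the first repeat and 114 bp upstream in the second, at percentiles of 57.1 and 76.8. POLIIS2P had a summit 54 bp upstream of this start in the second shLUC library (percentile of 85.8) and in shHNRNPU#1 (percentile of 94.2). In the first shLUC library the nearest POLIIS2P summit was 1366 bp inside the gene, so the site was one of the 702 with POLIIS2P in 1 shLUC list only. At the transcription end, position 244850297, POLIIS2P summits lay 81 bp away in both shLUC libraries and 50 bp away in shHNRNPU#1, at percentiles of 81.0, 68.8 and 84.9. The nearest HNRNPU summits were 12722 and 12985 bp from that end. Neither the transcript nor the protein of HNRNPU is measured by these libraries.

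Genes were next grouped by function. Of all protein-coding genes, 35.8% had a member, and the lists fell on both sides of this value. Among splicing factors and hnRNPs, which process pre-mRNA, 58 of 79 genes (73.4%) had one. HNRNPD, SF3B6 and HNRNPC had the highest HNRNPU scores of this list. HNRNPC, which binds uridine tracts in nascent RNA, had HNRNPU percentiles of 99.84 and 99.71 and POLIIS2P percentiles of 98.5, 97.6 and 97.2. Its H3K27ac summits, after exchange of names, ranked from 92.2 to 98.7 with a median of 98.1 in 6 libraries, while its H3K4me1 summits ranked from 6.19 to 73.1. SF3B6, a subunit of the SF3B complex that recognises the branch point, had 99.92 and 99.92 for HNRNPU and 99.97, 99.97 and 99.99 for POLIIS2P at a site that also lies near FAM228B and TP53I3. HNRNPA1, HNRNPK, HNRNPL and HNRNPM were among the 21 genes of the list without a member.

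Factors of 3′ end processing had a member at 17 of 24 genes (70.8%), among them PCF11, which ends transcription, and PABPN1, which binds poly(A) tails. PCF11 had HNRNPU percentiles of 99.48 and 99.34 and POLIIS2P percentiles of 98.1, 97.1 and 96.2. RNA polymerase II subunits and elongation factors had one at 39 of 57 genes (68.4%). ELL and AFF4, components of the super elongation complex, led this list. AFF4 had 99.61 and 98.97 for HNRNPU and 97.4, 97.3 and 97.7 for POLIIS2P, and its H3K27ac summits ranked from 99.6 to 99.96 in 6 libraries after exchange of names. The polymerase subunits POLR2A, POLR2B, POLR2D, POLR2G and POLR2I had a member, and POLR2C, POLR2E, POLR2F, POLR2H, POLR2J, POLR2K and POLR2L had none.

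Translation factors had a member at 24 of 35 genes (68.6%), cytosolic ribosomal proteins at 47 of 75 (62.7%) and mitochondrial ribosomal proteins at 48 of 76 (63.2%). EIF2S1, the regulated subunit of initiation factor eIF2, had HNRNPU percentiles of 99.66 and 99.62 and POLIIS2P percentiles of 95.7, 94.9 and 96.4. RPL41 had 99.81 and 99.86 for HNRNPU and 99.69, 99.77 and 99.87 for POLIIS2P. Its site lay 223 bp beyond the RPL41 end, but a limit of ZC3H10 was also within 1000 bp. The nearest limit therefore need not be that of RPL41. MRPS18B had 99.82 and 99.76 for HNRNPU and 96.8, 94.0 and 95.8 for POLIIS2P. The EIF2S1 site also lay within 1000 bp of a limit of ATP6V1D, and the MRPS18B site of one of PPP1R10. Ribosomal protein genes have many processed pseudogene copies, so summits called there depend on how reads with several matches were placed. Nuclear matrix and architecture genes had a member at 22 of 33 (66.7%), led by TPR and NUP98 of the nuclear pore and NPM1 of the nucleolus. NPM1 had 99.89 and 99.90 for HNRNPU and 99.40, 99.41 and 99.72 for POLIIS2P, with a strong summit in 12 of 12 histone libraries. Proteasome subunits had a member at 17 of 32 (53.1%), with PSMC4, PSMA5 and PSMB1 in front.

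Immediate early and stress genes, which respond within minutes to growth factors or damage, had a member at 19 of 36 (52.8%). JUN, a subunit of the AP-1 factor, had HNRNPU percentiles of 99.44 and 99.17 and POLIIS2P percentiles of 85.8, 61.0 and 87.3, so that the shLUC libraries lay far apart and the knockdown library beside the higher of them. HSPA1B, an inducible heat shock protein, had 99.21 and 99.45 for HNRNPU and 95.6, 97.8 and 98.0 for POLIIS2P, and its near-identical neighbour HSPA1A makes the placing of its reads uncertain. FOS, EGR1 and ATF3 had no member.

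Genes of the pluripotent state had a member at 15 of 38 (39.5%), close to all genes. JARID2, a partner of the Polycomb complex PRC2, led with HNRNPU percentiles of 98.9 and 97.9. Its POLIIS2P percentiles were 91.1 and 86.3 in shLUC and 62.9 in shHNRNPU#1. LIN28A, an RNA-binding regulator of let-7, had 96.7 and 95.1 for HNRNPU and 92.0, 89.3 and 86.7 for POLIIS2P. TERF1, a telomere-binding protein, had 97.0 and 97.4 for HNRNPU and a strong summit in 12 of 12 histone libraries. POU5F1, SOX2 and NANOG had no member.

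Regulators of differentiation were below the share of all genes, and the 3 lists with members are joined here, a choice made after seeing the data. Mesendoderm regulators had a member at 7 of 26 genes (26.9%), neural regulators at 4 of 23 (17.4%), HOX genes at 2 of 39 (5.13%), and blood and liver genes at 0 of 15 and 0 of 10. The members at these 13 mesendoderm, neural and HOX genes had low POLIIS2P ranks, with a median shLUC percentile of 55.1 against 87.0 over all members. After exchange of names, 9 of the 13 had no H3K27ac summit in any of 6 libraries, against 425 of all 5892 members (7.21%), and 0 of 13 had one in 6 of 6, against 43.6%. An H3K4me1 summit was found in 6 of 6 libraries at 6 of 13, against 57.1% of all members. PAX6, a regulator of eye and forebrain development, had HNRNPU percentiles of 52.8 and 70.6 and POLIIS2P percentiles of 14.2, 39.0 and 27.01. It had H3K4me1 summits in 6 of 6 libraries at ranks of 68.3 to 86.5 and no H3K27ac summit. MAP2, a neuronal microtubule protein, had 72.2 and 74.2 for HNRNPU, 60.7 and 51.8 for POLIIS2P in shLUC and no POLIIS2P summit in shHNRNPU#1. TBXT, the mesoderm factor Brachyury, had no histone summit in any of the 12 libraries. By comparison, of 139 member sites at splicing, ribosomal and translation genes, 3 had no H3K27ac summit and 94 (67.6%) had one in 6 of 6 libraries, and their median POLIIS2P percentile was 93.9.

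**Figure D5:**
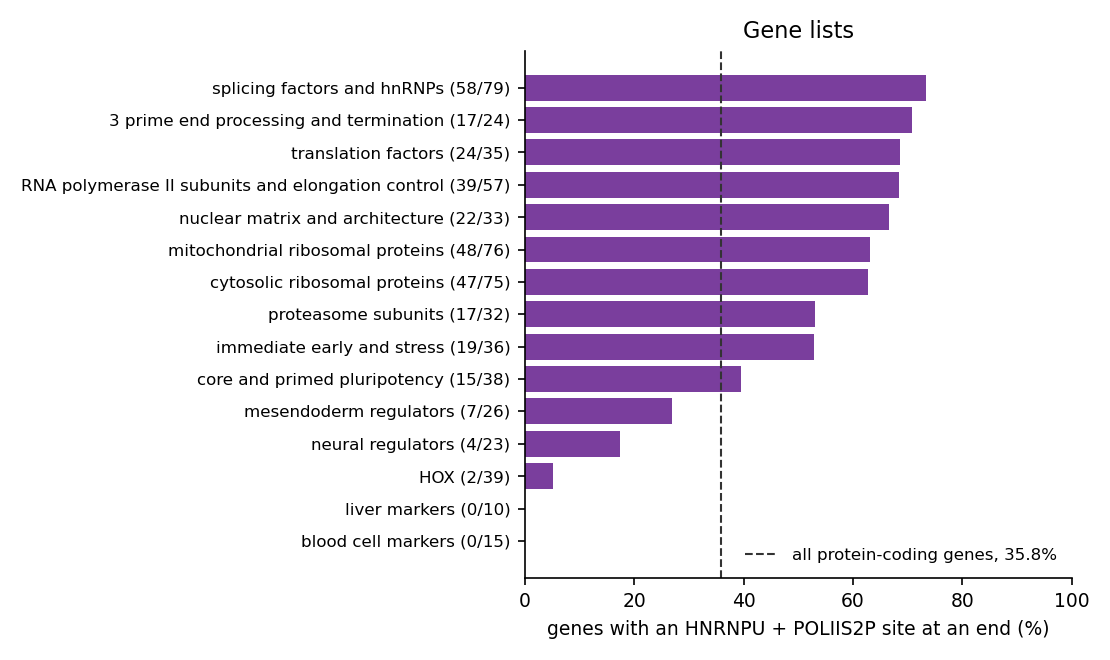
Bars show the share of genes (%) with a member within 1000 bp of an end in each of 15 gene lists, with counts in brackets, and the dashed line marks the 35.8% of all protein-coding genes on chromosomes 1 to 22. The highest bar is splicing factors and hnRNPs at 73.4%, and blood and liver genes are at 0.

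CLTCL1 was one of 3 members whose second-repeat summit lay at the limit of 250 bp, and DISP3 one of 5 sites left out at 251 bp. The HNRNPU percentiles in the first repeat were 17.5 and 33.0. FER was inside at 1000 bp from the gene limit and SLC6A16 outside at 1002 bp, with percentiles of 98.1 and 98.1. For POLIIS2P, SH3GLB1 was inside at 497 bp and CEP170 outside at 503 bp in the first shLUC library, and DYDC1 was inside at 499 bp and NEFM outside at 503 bp in the second.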

How the data were processed

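CUT&Tag libraries of H1 cells were grouped by their sample titles. The paper listed with the series describes mouse cells, so no method was taken from it. Per the labels and the submitters' processing notes, reads were trimmed with cutadapt, aligned to hg38 with Bowtie2, and handled with SAMtools, deepTools and MACS2, with versions not given in the sources used here. The authors deposited 1 summit list per library. Each deposited score was taken for a −log10 significance (q-value or p-value), since the lowest was 2.00 in the 12 histone lists and 1.30 in the 5 others, which correspond to 0.01 and 0.05. Scores were used as ranks within a list. A deposited list of HNRNPU intervals of 400 bp has a score of 0 throughout and gave positions only. Of the primary antibodies that the labels list, none is for H3K4me1 or POLIIS2P. Read depth is unknown, and the counts of summits do not replace it.

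Positions are GRCh38, counted from 1. Gene limits came from RefSeq (GRCh38.p14) for 19122 protein-coding genes, and strand from promoter entries for 15100 of them. Gene starts are the outermost RefSeq limits. The 20000 highest-scoring summits of each list were used for marks, within 500 bp, unless all summits are named, because lists differ in length. For condition-specific sites, summits of all libraries of one condition and of none of the other were required. HNRNPU sites without POLIIS2P had no summit within 500 bp in either shLUC list. POLIIS2P sites without HNRNPU were summits of the first shLUC library with one of the second within 250 bp and no HNRNPU summit within 500 bp in either repeat.

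Differences between conditions were tested by exact permutation over the 15 assignments of 6 libraries, and differences between sets by exact sign changes over libraries, both two-sided. Wilson intervals are at the 95% level. Scripts used Python 3.11.15, numpy 2.4.6, pandas 2.3.3 and scipy 1.17.1 and were tested on simulated positions and values.

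The members and gene lists were chosen with earlier results of these data known. Named members were the 8 highest by HNRNPU and by POLIIS2P, the 3 highest by HNRNPU in each gene list, the 4 highest without a histone summit, the 4 highest in shLUC without POLIIS2P in shHNRNPU#1, sites beside each limit of the rule, and the HNRNPU gene. Other genes are named from the lists after their values were seen. A named member and a marker check are not reported here. Alternatives were other distances, list lengths, single shRNAs, left-out libraries, a replicate block, members within 500 bp of gene limits and the series-wide intervals.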

Additional observations from a re-analysis of the deposited data

How the results depend on the processing

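With all deposited summits in place of the 20000 strongest, the differences as labelled reversed. H3K4me1 came to 1.25 percentage points (exact permutation p = 0.867) and H3K27ac to -8.79 (exact permutation p = 0.133). The lists differ in length by title, and the cause was not tested. The other alternatives kept their direction in the 5 comparisons of shHNRNPU with shLUC, and none passed 0.05, which this design cannot reach. With single libraries left out, H3K27ac after exchange ran from -8.93 to -2.53 and H3K4me1 from 1.02 to 1.93 percentage points. It was -8.83 for shHNRNPU#1 alone and -2.63 for shHNRNPU#2 alone in H3K27ac. The lowest value, -8.93, came without the shLUC library titled H3K4me1 replicate 1, and the value without replicate 2 was -2.53. With both antibodies joined the difference came to -7.47 when shLUC replicate 1 was left out and to -2.09 when replicate 2 was, the lowest and highest of these values. As labelled, the ranges were -44.5 to -38.1 for H3K4me1 and 35.5 to 38.4 for H3K27ac.

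With the replicate number as a block, the differences were by construction those reported, -41.3 and 37.1 points as labelled and 1.52 and -5.73 after exchange, and -4.78 joined. The exact permutation p over 9 arrangements was 0.111, 0.111, 0.222, 0.333 and 0.333. Repeat differences at members correlated between groups by -0.0337 to 0.0154. Such correlations cannot show a shift common to all sites of a repeat, so whether the numbers pair the libraries was not settled.

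The higher histone share of members against both other sets kept p under 0.05 in each alternative but one. This was H3K4me1 at gene starts against HNRNPU sites without POLIIS2P (1.94 points, exact permutation p = 0.0625). There, the library titled H3K27ac shLUC replicate 1 had 9.40% at members and 9.47% at the other sites. With 1 library left out the differences were 17.7 to 21.5 and 23.5 to 27.6 points. With all deposited summits the mean difference was 24.6 ± 15.4 points against HNRNPU sites without POLIIS2P. Against POLIIS2P sites without HNRNPU it was 49.0 ± 5.05 points. The POLIIS2P difference moved from 3.73 to 0.0590 points with all deposited summits. The gene-start share moved from 95.3% to 97.3% for members within 500 bp of a gene limit. The number of members ran from 4181 to 8135.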
